A study of Mus musculus with 4 samples.

Results

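The cells described here are thymic epithelial cells that carry RNA of Adamts19 and Kctd16. They were chosen from the counts alone. A cell was taken when it had more than 1000 detected genes, under 20% mitochondrial UMIs (unique molecular identifiers, each standing for 1 captured RNA molecule), at least 1 UMI of Epcam and at least 3 UMIs of Adamts19 and Kctd16 together. It also had to have under 2 UMIs of Rrad and Ifi202b together, under 2 of Ackr4, Zfp385b and Ntrk3 together, and 0 of Aire, Fezf2, Psmb11, Otog, Trpm5 and Ptprc, which mark other epithelial classes or blood cells. These conditions held for 136 of 13981 called cells, out of 10245 cells within both quality limits, 3641 of which had Epcam. The 872 cells that met every condition except the Adamts19 and Kctd16 threshold are called other gated cells.

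Single CD45- stromal cells from the thymus of untreated C57BL/6 mice, 6 months old, were profiled by droplet-based 3′ RNA-seq. The 2 wild-type libraries (WT 1 and WT 2) are labelled as the mock group of the Foxn1 LacZ experiment, and the 2 mutant libraries (Z/Z 1 and Z/Z 2) come from Foxn1 LacZ mutants, which carry this hypomorphic allele on both chromosomes. Each library was made from pooled thymi of several mice, depleted of CD45+ cells with magnetic beads and then sorted, so a library is 1 pool and not 1 mouse. The protocol gives female mice and the sample characteristics give male mice, and the kit version also differs between the labels and the methods.

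Thymic epithelial cells (TECs) guide the development of T cells. FOXN1 is the transcription factor that drives their differentiation, cortical TECs (cTECs) select thymocytes on self peptides, and medullary TECs (mTECs) display tissue-restricted antigens under AIRE and FEZF2. Adamts19 and Adamts6 encode secreted metalloproteases of the ADAMTS family, which act on extracellular matrix. Kctd16 encodes an auxiliary subunit of the GABA-B receptor, and Fst encodes follistatin, a secreted inhibitor of activins that also binds some bone morphogenetic proteins.

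The WT libraries gave 5 and 2 of the 136 cells, and the Z/Z libraries 85 and 44. These held 50437, 17893, 653188 and 311857 UMIs respectively, so all statements on WT cells rest on 7 cells and levels there are coarse. Their median UMIs per cell were 10129, 8946.5, 6749 and 6657.5, against 5897, 7533, 5860.5 and 5483.5 in other gated cells. No chosen cell had a barcode that was also called in another library, although libraries of 1 genotype shared 202 (WT) and 249 (Z/Z) called barcodes. Those 202 were 16.9% of the called barcodes of WT 2. Libraries of different genotype shared only 0 to 6. The cause of the sharing within a genotype was not tested, and the tests below take the 2 libraries of a genotype as independent. Of the 136 cells, 5 were among the 3.9% of their library with the highest doublet scores.

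Before the exclusions, 43, 13, 283 and 194 Epcam-positive cells reached the Adamts19 and Kctd16 threshold in WT 1, WT 2, Z/Z 1 and Z/Z 2. The exclusions removed 88.4%, 84.6%, 70.0% and 77.3% of them. The commonest reason was RNA of Rrad and Ifi202b, in 306 of the 397 cells removed, and Ackr4, Zfp385b and Ntrk3 accounted for 130. The removed cells were deeper, with median UMIs of 22106, 17803, 17902 and 13496.5. The pair of genes was thus present well beyond the 136 cells, and the rule kept the part of that population in which markers of other classes were not seen.

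The values that chose the cells are given here as a description. Among gated cells of Z/Z 1, 31 had 2 UMIs of the pair, just outside the threshold, 15 had 3, just inside it, 43 had 4 to 9, and 27 had 10 or more, up to 66. In Z/Z 2 the same counts were 9, 4, 26 and 14, with a maximum of 63. There was no gap in the distribution at the threshold. In Z/Z 1, 44 of the 85 cells had both genes, 22 had Adamts19 alone and 19 had Kctd16 alone, and in Z/Z 2 these numbers were 16, 8 and 20. In WT 1, 4 of the 5 cells had Adamts19 alone and 1 had Kctd16 alone, and in WT 2, 1 cell had Adamts19 alone and 1 had both, with 28 UMIs of Adamts19 and 1 of Kctd16. Summed over the cells, Adamts19 was at 416, 1733, 435 and 407 UMIs per 1000000 UMIs of the library's chosen cells (CPM), listed as WT 1, WT 2, Z/Z 1, Z/Z 2. The level of Kctd16 was 79.3, 55.9, 839 and 1212 CPM. The cells met the rule mostly through Adamts19 in WT, and through either gene or both in Z/Z.

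**Figure D1:**
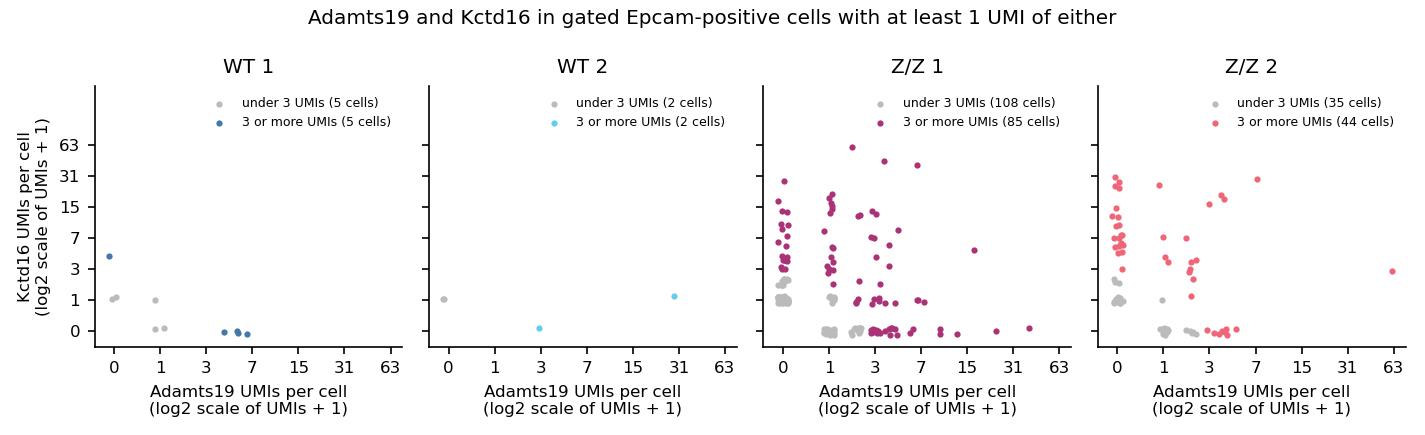
Adamts19 UMIs (x axis) and Kctd16 UMIs (y axis) of every gated Epcam-positive cell with at least 1 UMI of either gene, 1 panel per library, on log2 axes of UMIs + 1 with random jitter. Coloured points are the 5, 2, 85 and 44 chosen cells and grey points lie under the threshold; points of the Z/Z panels run along both axes as well as between them.

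Cells that should lack the pair seldom reached the threshold. Of fibroblasts (Pdgfra-positive, Epcam-negative cells), 0.771%, 0%, 0.371% and 0.418% had 3 or more UMIs of the pair in WT 1, WT 2, Z/Z 1 and Z/Z 2, at median UMIs of 15436, 15448, 11439 and 10999. Single UMIs were commoner, mainly of Kctd16, which was seen in 10.8% of Z/Z 1 and 5.22% of Z/Z 2 fibroblasts, while Adamts19 was seen in 0.989% and 0.626%. The 77 and 26 gated cells with 1 UMI of the pair in Z/Z 1 and Z/Z 2 therefore cannot be told apart from background.

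The share of Epcam-positive cells that met the rule was 0.887% (5 of 564, exact 95% interval 0.288% to 2.06%) in WT 1 and 1.39% (2 of 144, 0.169% to 4.93%) in WT 2. It was 5.54% (85 of 1534, 4.45% to 6.81%) in Z/Z 1 and 3.15% (44 of 1399, 2.29% to 4.20%) in Z/Z 2. Both Z/Z libraries lay above both WT libraries, although the interval of WT 2 reached that of each Z/Z library. The WT mean was 1.14% ± 0.355 and the Z/Z mean was 4.34% ± 1.69 (SD, n = 2 libraries each), a difference of 3.21 percentage points (exact two-sided permutation test over libraries, p = 0.333, the smallest value that 2 against 2 allows). The intervals cover counting error only.

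The rule counts UMIs, so the share can move with depth, and the cells removed by the exclusions were the deeper ones. Epcam-positive cells had median UMIs of 21028.5 and 18972 in WT against 8902 and 9143 in Z/Z. With every cell thinned to 5000 UMIs and shallower cells left out, the shares were 0.988%, 2.30%, 5.55% and 3.28% in WT 1, WT 2, Z/Z 1 and Z/Z 2. Without any exclusion, Epcam-positive cells at the threshold made up 7.62%, 9.03%, 18.4% and 13.9%. With both changes together the shares were 2.70%, 6.36%, 11.1% and 9.63%, and the interval of WT 2 (2.60% to 12.7%) took in both Z/Z values. These last shares were over the 482, 110, 1230 and 1028 cells that had Epcam before thinning. The thinned shares of the full rule were over the 405, 87, 1099 and 916 cells that still had Epcam after it. The Z/Z libraries were above the WT libraries in each of these forms.

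**Figure D2:**
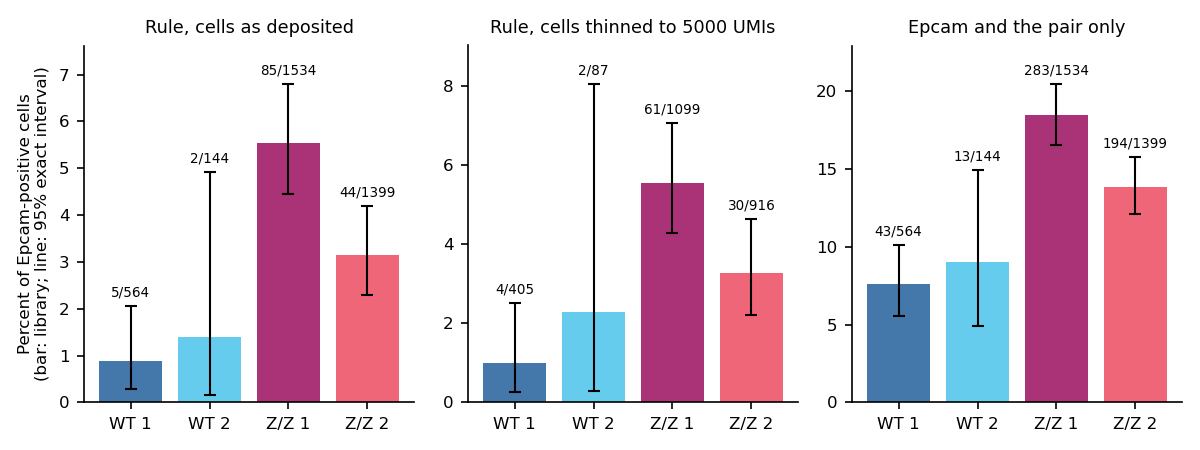
Percent of Epcam-positive cells in each library (bars, with cells counted above them and exact 95% intervals as lines) that met the full rule as deposited, met it after thinning to 5000 UMIs per cell, or had Epcam and at least 3 UMIs of the pair without exclusions. Both Z/Z bars stand above both WT bars in all 3 panels, and the WT 2 interval overlaps those of both Z/Z libraries except that of Z/Z 1 in the last panel.

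The same pair was found in other epithelial classes. Rrad Ifi202b cells are Epcam-positive cells with 2 or more UMIs of those 2 genes and none of the other exclusion markers past its limit. Of these, 14.3%, 14.3%, 25.9% and 21.5% had 3 or more UMIs of Adamts19 and Kctd16 in WT 1, WT 2, Z/Z 1 and Z/Z 2. In cells with Ackr4, Zfp385b and Ntrk3 the shares were 19.2%, 20.0%, 12.0% and 14.7%, and in cells with Aire or Fezf2 they were 2.34%, 3.23%, 19.0% and 10.2%. At 5000 UMIs per cell, a comparison chosen after seeing the data, the Aire or Fezf2 cells of Z/Z came to 4.46% and 4.93% and the Rrad Ifi202b cells to 17.2% and 18.3%, while the WT shares of these classes rest on few cells. No test was made of these shares, since all are cells of the same libraries.

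Of the 2 remaining markers, Adamts6 was several times higher in the chosen cells of each library than in other gated cells, while Fst differed less in Z/Z. Adamts6 (chromosome 13, 104287835 to 104496695, plus strand, GRCm38) was at 99.1, 224, 170 and 208 CPM in the chosen cells of WT 1, WT 2, Z/Z 1 and Z/Z 2, against 18.0, 12.3, 37.3 and 40.2 CPM in other gated cells. All 4 values were above those of other gated cells, although WT rests on 5 and 4 UMIs. In WT the gene was also at 89.0 and 256 CPM in endothelial cells, 23.3% and 34.2% of which had a UMI. It was at 166 and 282 CPM in free RNA of WT, above the chosen cells, but at 17.3 and 16.9 CPM in WT fibroblasts. The part of background in the few WT UMIs was not tested. In Z/Z, endothelial cells were at 12.5 and 23.3 CPM and free RNA at 34.5 and 73.2 CPM. Its UMIs were found in 42.4% and 56.8% of the Z/Z cells, against 13.9% and 19.2% of other gated cells, and in 6.06% and 11.7% of Z/Z fibroblasts. Within the gated cells of Z/Z, Adamts6 was at 31.6 and 38.1 CPM in cells without the pair and at 285 and 293 CPM in cells with 10 or more UMIs of it.

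Fst (chromosome 13, 114452290 to 114458951, minus strand) was at 436 and 447 CPM in the WT cells and at 139 and 151 CPM in the Z/Z cells. The WT values rest on 22 and 8 UMIs, 14 of them in 1 cell. In other gated cells Fst was at 23.1, 9.87, 111 and 82.9 CPM, so in Z/Z the chosen cells exceeded the other gated cells by 0.34 and 0.87 on the log2 scale. It was seen in 38.8% and 56.4% of Z/Z fibroblasts, so its RNA was not limited to epithelium. By these values the label held for Adamts6 in the mutant cells, while Fst separated the cells from other gated cells mainly in WT.

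RNA of other epithelial genes was seen in the cells as well. Krt8 was at 258, 391, 660 and 850 CPM, Cdh1 at 178, 391, 415 and 218 CPM and Cd74, the invariant chain of MHC class II, at 2518, 8830, 3347 and 5115 CPM in WT 1, WT 2, Z/Z 1 and Z/Z 2. UMIs of Cd74 were found in 97.7% and 100% of the Z/Z cells. Free RNA held Cd74 at 2859, 1963, 1733 and 3015 CPM and Krt8 at 432, 292, 847 and 1288 CPM. Krt8 was thus below free RNA in WT 1, Z/Z 1 and Z/Z 2, and Cd74 in WT 1. In fibroblasts Krt8 was at 10.8, 5.64, 13.4 and 29.2 CPM. Fibroblast markers summed to 198, 168, 171 and 1119 CPM over 8 genes, against 2547 and 3379 CPM in other gated cells of Z/Z, and all 8 were lower in both Z/Z libraries. Endothelial markers summed to 377, 0, 87.3 and 208 CPM, against 552 and 794 CPM in other gated cells of Z/Z. The other gated cells thus held more vascular and fibroblast RNA than the chosen cells, and ratios to them are given beside ratios to cleaner classes.

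In principal component space with the 14 rule genes held out, 24.5% of the 20 nearest neighbours of a chosen cell in Z/Z 1 were chosen cells, which made up 5.54% of the Epcam-positive cells. In Z/Z 2 the share was 14.2% against 3.15%. Other gated cells made up 37.1% and 30.6% of the neighbours, beside 30.4% and 22.3% of all Epcam-positive cells. For Rrad Ifi202b cells the shares were 22.1% and 20.8%, beside 22.9% and 17.9%. For Aire or Fezf2 cells they were 2.06% and 5.57%, beside 7.56% and 11.9%. Cells with the pair that the exclusions removed made up 14.9% and 27.3%, beside 12.9% and 10.7%. These overlap the Rrad Ifi202b and the Aire or Fezf2 cells, and in Z/Z 2 their share of the neighbours was above that of chosen cells. Chosen cells were thus commoner among the neighbours than in the library, by 4.42-fold and 4.52-fold, although most neighbours were other cells. Other classes were also commoner among their own neighbours in Z/Z 1 and Z/Z 2. The ratios were 2.80 and 3.09 for Ackr4 Zfp385b Ntrk3 cells and 2.15 and 2.07 for Rrad Ifi202b cells. They were 2.02 and 2.36 for the removed cells with the pair and 1.60 and 1.57 for other gated cells. This describes the cells that were clustered and is no test.

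Levels of all genes were compared with other gated cells within Z/Z 1 and Z/Z 2, the libraries with enough cells, as a description without a test, because the rule chose the cells by their own RNA. Of 9644 genes measured, 38.9% were higher and 29.6% lower in the chosen cells of both libraries. At least 2-fold differences in both were seen in 2.82% as higher and in 7.3% as lower. The median log2 ratio of all genes was 0.12 against other gated cells and 0.13 against gated cells without a UMI of Pecam1, Cdh5, Pdgfra or Pth, called cleaner gated cells, a comparison added after seeing the data. Against Rrad Ifi202b cells, 3713 of the 9644 genes were higher and 2720 lower in both libraries. Counts of list members below are to be read against these shares, counts and medians. Among genes at 50 CPM or more, the 25 with the largest ratio ranged from 3.25-fold (Slc25a27, a mitochondrial carrier) to 8.19-fold (Trhr, the receptor of thyrotropin-releasing hormone). Trhr was at 88.8 and 32.1 CPM in the chosen cells of Z/Z 1 and Z/Z 2 and at 5.81 and 7.34 CPM in other gated cells.

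Several of the 25 act at synapses or in membrane excitability. Nlgn1, a postsynaptic adhesion protein, was at 1586, 1062, 1035 and 1029 CPM in the chosen cells of WT 1, WT 2, Z/Z 1 and Z/Z 2 and at 191, 37.0, 326 and 248 CPM in other gated cells. Its 4 values in the chosen cells were close to each other and all lay above those of other gated cells. Grm8, a metabotropic glutamate receptor, was at 892, 112, 265 and 356 CPM against 16.7, 143, 49.5 and 50.1 CPM. It was higher in the chosen cells of WT 1 and both Z/Z libraries and not in WT 2, where it had 2 UMIs.

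Kcnq3, a subunit of a slow potassium channel, was at 606 and 1081 CPM in Z/Z against 237 and 256 CPM in other gated cells. Sorcs3, a sorting receptor of neurons, was at 312 and 257 CPM against 61.9 and 36.7 CPM, and had no UMI in the 7 WT cells. Kctd8, which encodes a GABA-B receptor subunit related to Kctd16, was at 85.7 and 96.2 CPM against 13.3 and 20.7 CPM. Kctd8 was seen in 14.1% and 15.9% of the cells, so its level came from a minority of them. Other leading genes were Kcnh1, a voltage-gated potassium channel, Mdga1, a membrane protein that binds neuroligins, and Csmd2, Unc79 and Fam155a, which are known mainly from brain. Mkx, a homeobox gene of tendon, Wfikkn2, a secreted binder of growth and differentiation factors, Mybpc2, a myosin-binding protein, and Slc46a2, a transporter known from thymic stroma, were also among them.

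**Figure D3:**
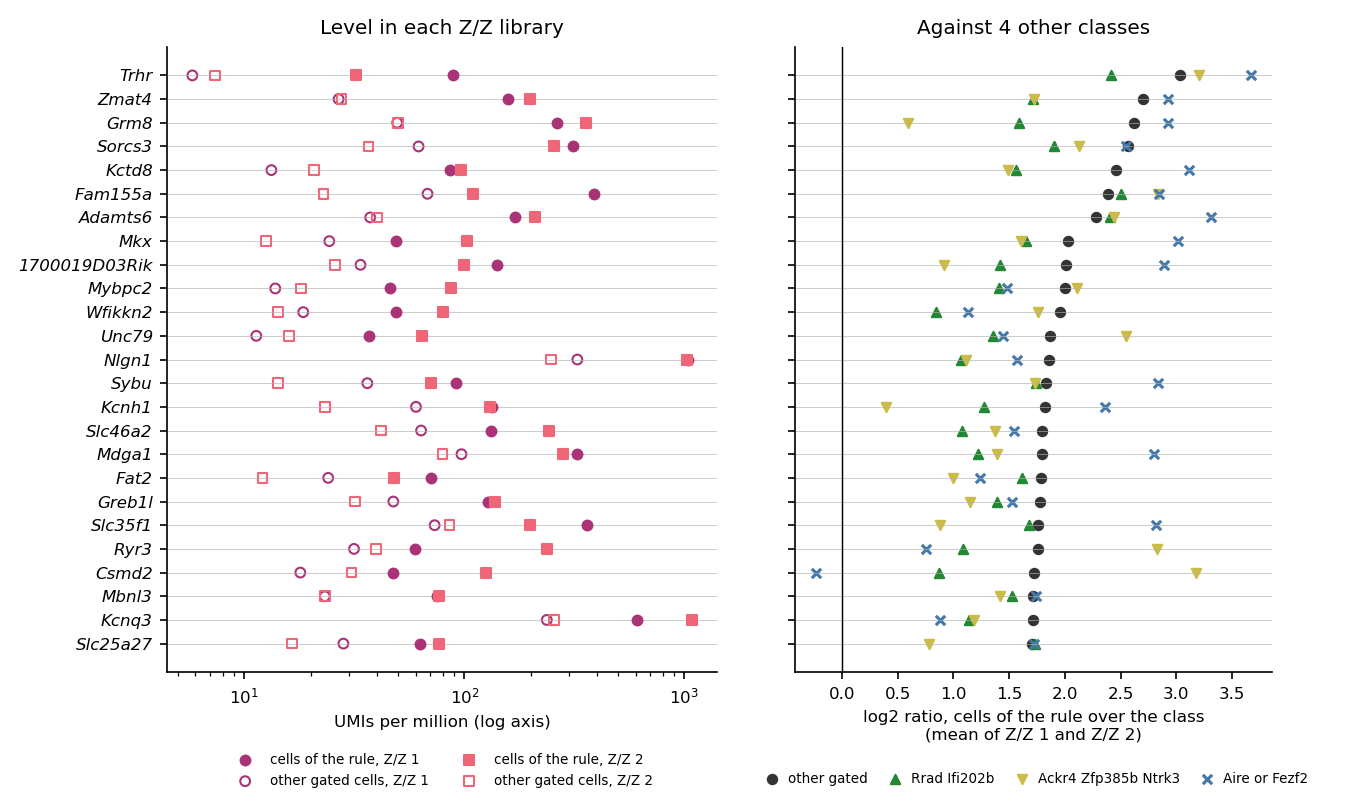
The 25 leading genes: left, level in CPM (log axis) in the chosen cells (filled) and in other gated cells (open) of Z/Z 1 and Z/Z 2; right, log2 ratio of the chosen cells to 4 classes of epithelial cells, as the mean of both libraries. Filled points lie right of open points for all 25, and all ratios are above 0 except that of Csmd2 to Aire or Fezf2 cells.

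All 25 genes were also higher in both Z/Z libraries against Rrad Ifi202b cells, with a median of 2.89-fold, and against all other Epcam-positive cells, with a median of 3.24-fold. Against cleaner gated cells the median was 3.01-fold and again all 25 were higher. Against Ackr4 Zfp385b Ntrk3 cells and against Aire or Fezf2 cells 24 of 25 were higher. At 5000 UMIs per cell, the share of cells with a UMI was higher in the chosen cells for all 25. The genes were picked for high ratios in these same cells, so these counts are description and no support. Of the 3730 genes at 50 CPM or more, 1563 were higher against Rrad Ifi202b cells and 1647 against all other Epcam-positive cells. The numbers were 1792 against cleaner gated cells, 1400 against Ackr4 Zfp385b Ntrk3 cells and 1926 against Aire or Fezf2 cells. In WT, which the choice of genes did not use, 18 of the 25 were higher than in other gated cells in WT 1, 14 in WT 2 and 11 in both (44.0%), and the same held in both WT libraries for 1084 of the 3730 genes at 50 CPM or more (29.1%). These WT levels rest on few UMIs.

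Gene length moved with this pattern. The 25 genes span a median of 232 kb in the GRCm38 annotation, against 51.5 kb for the 3730 genes at 50 CPM or more, and 14 of the 25 span over 200 kb. Over all these genes, the median log2 ratio to other gated cells was 0.03 for genes under 10 kb, 0.12 for 10 to 50 kb, 0.27 for 50 to 200 kb and 0.41 for over 200 kb. Adamts19 and Kctd16, both on chromosome 18, span 217 and 275 kb, and intronic reads were counted. Ratios of long genes were thus above those of short genes in general. The lists below are read against the median of genes of all lengths. The part of gene length in the leading genes and in these lists was not tested.

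Transcription factors of the TEC lineage were higher in the chosen cells than in both main comparison classes. Of the 13 measured members of a list of 15, 10 were higher and 1 was lower in both Z/Z libraries against other gated cells, and 10 and 1 against Rrad Ifi202b cells. The median log2 ratio was 0.59 and 0.74, beside 0.12 and 0.13 for all genes, and 0.31 against cleaner gated cells. Meis1, a homeobox factor, was at 834 and 596 CPM in Z/Z, against 418 and 249 CPM in other gated cells and 259 and 227 CPM in Rrad Ifi202b cells. Eya1, a transcriptional coactivator needed to form the thymus, was at 707 and 484 CPM against 347 and 223 CPM in other gated cells, and Trp63, the p53 family member that maintains epithelial progenitors, at 331 and 279 CPM against 153 and 98.1 CPM.

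Pax1, a paired-box factor of the pharyngeal pouch, was at 303 and 330 CPM against 153 and 116 CPM, and was seen in 76.5% and 72.7% of the cells. Pax9 differed less, at 221 and 192 CPM against 164 and 121 CPM. Sox9 was the member that was lower against Rrad Ifi202b cells, at 149 and 170 CPM against 244 and 218 CPM. In WT the TEC factors summed to 2796 and 3074 CPM in the chosen cells and 485 and 649 CPM in other gated cells. The direction was the same in Z/Z (3135 and 2568 against 1836 and 1303 CPM). In Ackr4 Zfp385b Ntrk3 cells they summed to 1416 and 2793 CPM in WT and 2584 and 1826 CPM in Z/Z. That class thus lay between the chosen cells and other gated cells, so high levels of these factors were not limited to the chosen cells.

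Foxn1 itself, the altered gene, had 1 UMI in the 5 cells of WT 1, 0 in the 2 cells of WT 2, and 46 and 28 UMIs in the Z/Z libraries. These are 19.8, 0, 70.4 and 89.8 CPM. With so few WT cells, 0 and 1 UMI cannot show a lower level. The fitted log2 difference of Z/Z from WT was 2.52 ± 1.14 (SE), with an adjusted p of 0.559 (edgeR quasi-likelihood test, Benjamini-Hochberg adjustment). Whether the counts separate the altered transcript from the intact one was not tested, so Foxn1 does not check the labels here. Within Z/Z, Foxn1 was at 70.4 and 89.8 CPM in the chosen cells, 29.6 and 24.2 CPM in other gated cells, 40.6 and 53.4 CPM in Rrad Ifi202b cells and 72.6 and 77.8 CPM in Aire or Fezf2 cells. The chosen cells were thus near the Aire or Fezf2 cells in Foxn1 and above the others in both libraries.

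**Figure D4:**
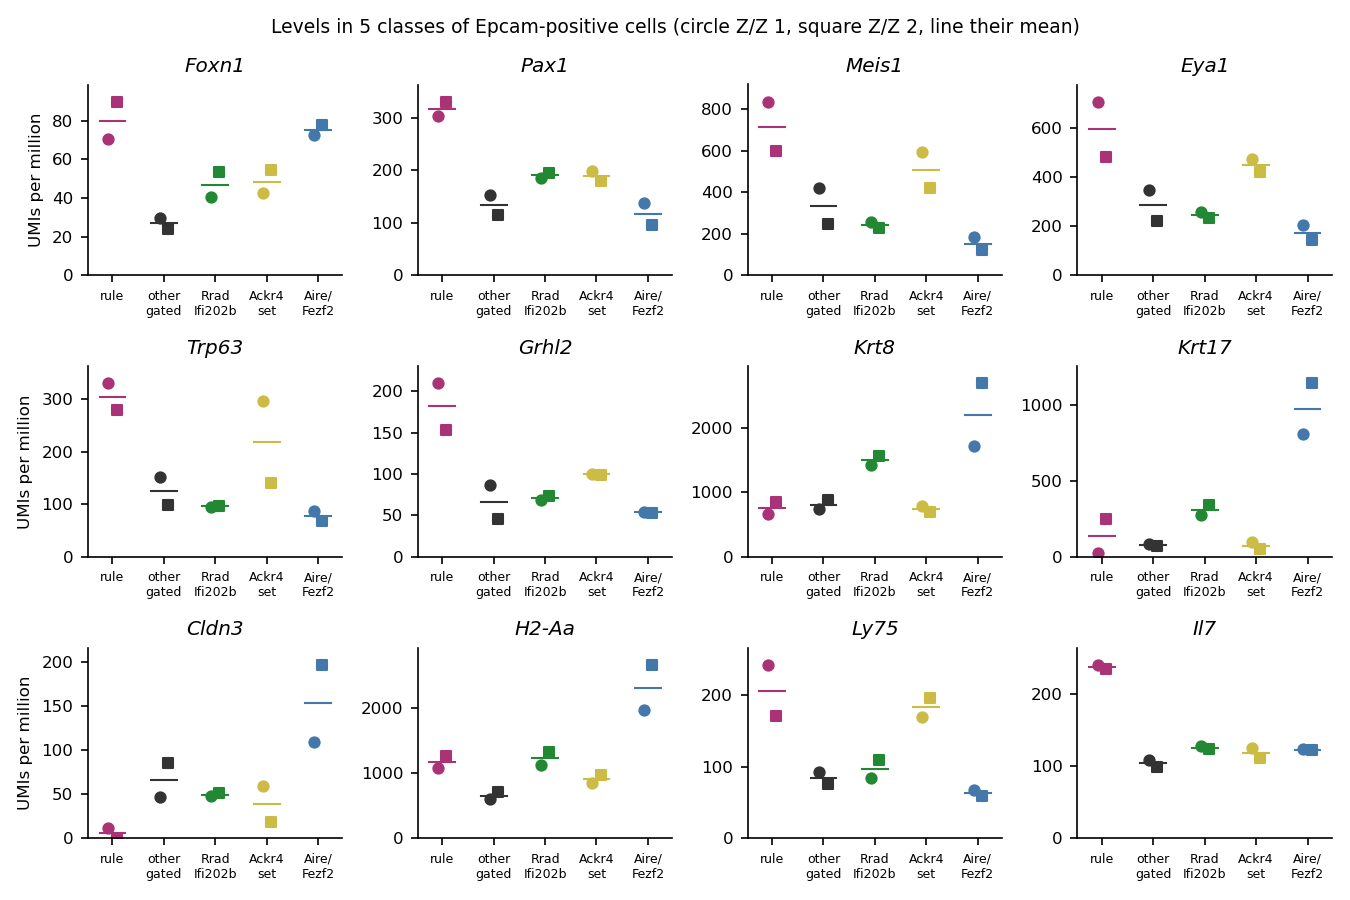
Levels (CPM, linear axes from 0) of 12 epithelial genes in 5 classes of Epcam-positive cells of Z/Z 1 (circles) and Z/Z 2 (squares), with a line at their mean. The chosen cells ("rule") are highest in Pax1, Meis1, Eya1, Grhl2 and Il7, near the Aire or Fezf2 cells in Foxn1, and lowest in Cldn3.

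Functional genes of cortex and medulla gave counts near the background. Of 11 measured cortical genes 4 were higher and 4 lower in both Z/Z libraries than in other gated cells, where 38.9% and 29.6% of all genes were. Ly75, the endocytic receptor DEC-205 of cTECs, was at 242 and 170 CPM against 92.6 and 75.6 CPM, and Il7, the cytokine that early thymocytes require, at 240 and 234 CPM against 109 and 98.9 CPM. Kitl, the ligand of the progenitor receptor KIT, was at 29.1 and 76.96 CPM against 200 and 194 CPM. Prss16, the thymus-specific serine protease, was at 18.4 and 70.6 CPM against 15.8 and 26.8 CPM, and Cxcl12 at 141 and 189 CPM against 178 and 260 CPM.

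Of 11 measured medullary genes, 4 were higher and 5 lower. Ccl21a, the chemokine of the medulla, was at 494 CPM in Z/Z 1 and 2966 CPM in Z/Z 2, and Krt14 at 15.3 and 83.4 CPM, so the libraries differed more from each other here than the classes did. Counts of Ccl21a are uncertain because the gene has near-identical copies. Tnfrsf11a, the receptor RANK that matures mTECs, was at 7.65 and 22.5 CPM against 34.0 and 41.9 CPM. Psmb11, Aire and Fezf2 were at 0 by the rule.

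MHC class II genes differed by comparison. Of 10 measured, 8 were higher in both Z/Z libraries than in other gated cells and 1 was higher and 4 lower than in Rrad Ifi202b cells. Their median log2 ratio was 0.62 against other gated cells, 0.21 against cleaner gated cells and -0.08 against Rrad Ifi202b cells. H2-Aa was at 932, 2124, 1075 and 1260 CPM in WT 1, WT 2, Z/Z 1 and Z/Z 2 and was seen in 89.4% and 90.9% of the Z/Z cells. The level was 597 and 711 CPM in other gated cells of Z/Z, 1126 and 1321 CPM in Rrad Ifi202b cells and 1956 and 2655 CPM in Aire or Fezf2 cells. The chosen cells thus lay above the former, close to the second and below the last in both libraries.

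Most genes that mark early progenitors and age-associated TECs (aaTECs) were lower in the chosen cells of Z/Z, but not their sum in WT. Of 12 measured, 2 were higher and 9 lower in both Z/Z libraries than in other gated cells, and 1 and 9 against Rrad Ifi202b cells. Cldn3, a tight junction claudin, had 0, 0, 8 and 0 UMIs in the chosen cells of WT 1, WT 2, Z/Z 1 and Z/Z 2, and was at 46.7 and 85.1 CPM in other gated cells of Z/Z. Vim, the mesenchymal intermediate filament, was at 12.3 and 64.1 CPM against 237 and 369 CPM, and Apod, an apolipoprotein, at 6.12 and 25.7 CPM against 158 and 187 CPM. Igfbp5, a binding protein of insulin-like growth factors, went the other way, at 1231 and 1084 CPM against 657 and 984 CPM, and at 6503 and 1677 CPM in WT 1 and WT 2. The 12 genes summed to 7197 and 4136 CPM in the chosen cells of WT against 2455 and 1233 CPM in other gated cells, and to 2171 and 2129 CPM against 2281 and 2772 CPM in Z/Z.

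Keratins and junction genes depended on the comparison. Against other gated cells 6 of 18 were higher and 8 lower, and against Rrad Ifi202b cells 1 was higher and 15 lower, with a median log2 ratio of -0.99. Krt8 was at 660 and 850 CPM against 1425 and 1562 CPM in Rrad Ifi202b cells, Krt18 at 1147 and 1404 CPM against 2255 and 2958 CPM, and Cdh1 at 415 and 218 CPM against 730 and 791 CPM. Dsp, a desmosome protein, was at 369 and 369 CPM and close to the 396 and 406 CPM of Rrad Ifi202b cells. Claudin RNA was scarce throughout, with Cldn4 at 6.12 and 3.21 CPM and Cldn7 at 23.0 and 3.21 CPM.

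Interferon response genes were lower than in Rrad Ifi202b cells in 14 of 16, with 1 higher. Ifi202b is itself induced by interferon and the rule excluded cells with 2 or more UMIs of it and Rrad, so the rule used part of this difference. Isg15 was at 162 and 250 CPM against 480.5 and 488 CPM, and Ifit1 at 62.8 and 83.4 CPM against 440.4 and 423 CPM. Against other gated cells, to which the same exclusion applied, 13 of 16 were lower and 1 higher, with a median log2 ratio of -0.35. Isg15 was there at 243 and 340.4 CPM and B2m at 1206 and 1261 CPM, against 870 and 952 CPM in the chosen cells.

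Of 22 measured Wnt genes 14 were higher and 4 lower in both Z/Z libraries than in other gated cells, with a median log2 ratio of 0.50, and the cleaner gated cells gave 0.44. Lrp6, a Wnt coreceptor, was at 282 and 221 CPM against 160 and 140 CPM, Tcf7l2, a nuclear effector, at 312 and 314 CPM against 206 and 186 CPM, and Wnt4, a ligand known to regulate Foxn1 in TECs, at 152 and 199 CPM against 99 and 73.9 CPM. Ror1, a receptor for noncanonical Wnt, was at 530 and 289 CPM against 261 and 250 CPM.

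Of 11 Notch genes 6 were higher and 2 lower, with a median log2 ratio of 0.50, and of 0.26 against cleaner gated cells. The coactivators Maml2 (984 and 869 CPM against 606 and 553 CPM) and Maml3 (651 and 657 CPM against 316 and 275 CPM) and the ligand Jag2 (53.6 and 44.9 CPM against 26.3 and 17.7 CPM) were among the higher ones. The targets Hes1 and Hey1 and the effector Rbpj were not higher in both libraries. Rbpj was at 72.0 and 60.9 CPM against 112 and 105 CPM.

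Around follistatin, 9 of 26 activin and BMP genes were higher and 11 lower. The median log2 ratio was -0.12 against other gated cells and 0.19 against cleaner gated cells, so its sign depended on the comparison. The activin receptor Acvr2a was at 150 and 109 CPM against 70.8 and 49.2 CPM, and the BMP receptor Bmpr1a at 294 and 196 CPM against 182 and 149 CPM. The ligands were sparse. Inhba, the activin A subunit, had no UMI in any of the 136 cells, which allows at most 4.59 and 9.62 CPM in Z/Z 1 and Z/Z 2 (3 counts of the total), and Bmp4 had 0, 0, 3 and 2 UMIs. Id3, a BMP target, was at 308 and 356 CPM against 544.5 and 409 CPM.

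Relatives of the defining genes were mostly not higher. Besides Adamts19, which the rule used, 2 of 17 measured ADAMTS and TIMP genes were higher and 12 lower in both Z/Z libraries. Adamts6 was the one that was at least 2-fold higher, and Adamts4 was at 10.7 and 64.1 CPM against 139 and 174 CPM. Against cleaner gated cells the list's median log2 ratio was 0.01, against -0.90 with all other gated cells. Vascular and fibroblast RNA was higher in the latter cells, and its part in the list's direction was not tested. Timp3, an inhibitor of metalloproteases, was at 21.4 and 19.2 CPM against 338 and 385 CPM, and at 241 and 215 CPM in Rrad Ifi202b cells. Besides Kctd16, 2 of 11 genes of GABA-B receptors and KCTD subunits were higher, Kctd8 and the receptor Gabbr1 (58.2 and 51.3 CPM against 45.1 and 42.3 CPM), and 8 were lower.

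A list of 20 measured neuronal adhesion and synaptic genes also split, with 8 higher and 9 lower and a median log2 ratio of 0.11, close to the 0.12 of all genes. Against cleaner gated cells and Rrad Ifi202b cells its median was higher, at 0.50 and 0.57. Ctnnd2, a catenin of dendrites, was at 1262 and 1074 CPM against 461 and 364 CPM and Cadm1 at 553 and 318 CPM against 234 and 177 CPM. Of the remaining lists, basement membrane and integrin genes had 5 of 22 higher and 14 lower, mesenchymal transition genes 4 of 11 higher and 7 lower, growth factor receptors 4 of 10 higher and 5 lower, cell cycle genes 2 of 7 higher and 4 lower, and genes of dissociation and stress 9 of 15 higher and 2 lower. Against cleaner gated cells the median log2 ratio turned from -0.64 to 0.03 for basement membrane and integrin genes, from -0.56 to 0.45 for mesenchymal transition genes and from -0.21 to 0.23 for cell cycle genes, and it was -0.02 for growth factor receptors and 0.33 for dissociation and stress.

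**Figure D5:**
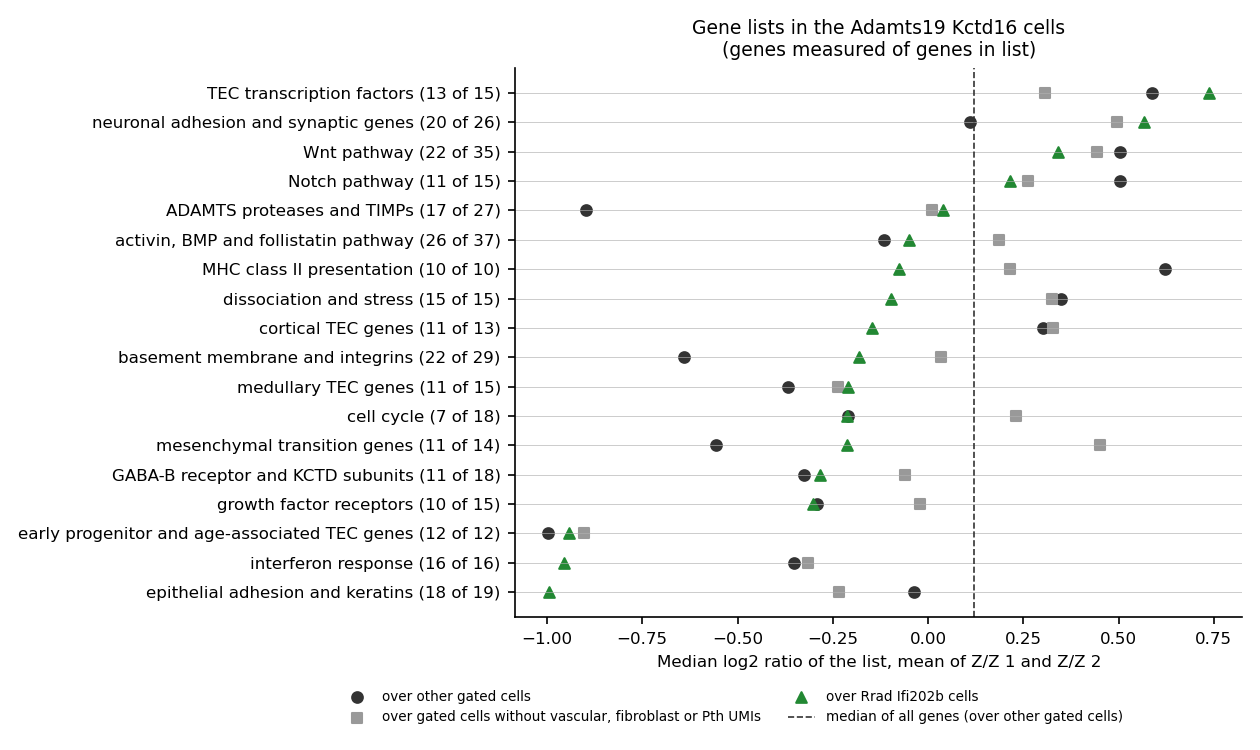
Median log2 ratio of each gene list in the chosen cells of Z/Z to other gated cells (circles), to gated cells without vascular, fibroblast or Pth UMIs (squares) and to Rrad Ifi202b cells (triangles), with the number of genes measured and the median of all genes (dashed, 0.12). The TEC transcription factors, Wnt and Notch lists lie above the dashed line in all 3 comparisons. The aaTEC, interferon, keratin, medullary, GABA-B and KCTD, growth factor receptor, ADAMTS and TIMP, and basement membrane lists lie below it in all 3.

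The 10 genes with the lowest ratio to other gated cells were Ighm, Igkc, Jchain, Iglc2, Ighg2b and Ly6c2, which plasma cells express, and Muc5b, Car8, Reg3g and Gm30211. Ighm had 11 and 0 UMIs in the chosen cells of Z/Z 1 and Z/Z 2 and was at 5405 and 4053 CPM in other gated cells, although only 17.8% and 8.33% of those cells had a UMI. Reg3g, an antimicrobial lectin of mimetic epithelial cells, had 2 and 3 UMIs and was at 877 and 165 CPM in other gated cells. These values describe the mixture in the comparison cells. The summed markers of other mimetic cells were 182 and 148 CPM in the chosen cells and 2570 and 555 CPM in other gated cells.

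The difference between genotypes inside the chosen cells was tested on UMIs summed per library, with libraries as replicates. WT cells met the rule mostly through Adamts19, and Z/Z cells through either gene or both. The part of this in the genotype comparisons, here and in the interaction below, was not tested. Of 4061 genes tested, 0 were called at an adjusted p of 0.05 (percent called, 0; edgeR quasi-likelihood test), 356 had an unadjusted p under 0.05 (8.77%) and DESeq2 called 4 of 16618 (0.0241%). The p-values measure the spread between 2 pools a group, taken as independent although they share barcodes. Counts of the same size were simulated with the dispersion, the spread between libraries, fixed at 0.05. On these the test recovered 46.5% of genes changed 4-fold and 78.5% of genes changed 16-fold. That dispersion was not estimated from the real sums, so the recovery does not give the power of the real fit. At 3 counts, the 2 WT libraries had floors of 59.5 and 168 CPM, so a gene under about these levels in WT was not detectable. The groups did not overlap for 1745 of the 4061 genes (43%), and with 7 WT cells the absence of calls does not show that the cells were alike.

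The genes with the smallest adjusted p, 0.0615 each, were Hnf4g, Aldh1a1, Cdh2 and Fcgbp, all lower in Z/Z. They are named after their values were seen. Cdh2, N-cadherin, had 8 and 9 UMIs in WT and 9 and 4 in Z/Z, or 159, 503, 13.8 and 12.8 CPM. Aldh1a1, which makes retinoic acid, was at 615, 55.9, 18.4 and 12.8 CPM, with 31 UMIs in WT 1 and 1 in WT 2. DESeq2 called Fcgbp, Cdh2 and Ryr3 as lower and Kirrel3 as higher.

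Ryr3, an intracellular calcium channel, was at 2161 and 2962 CPM in WT and 59.7 and 237 CPM in Z/Z, with 109, 53, 39 and 74 UMIs. The WT values lay above the Z/Z values and each of the 4 lay above that of other gated cells in its own library (103, 88.8, 31.5 and 39.7 CPM). Kirrel3, an adhesion molecule of neurons, was at 139 and 112 CPM in WT and 1638 and 1026 CPM in Z/Z. It was at 116, 14.8, 947 and 807 CPM in other gated cells, where the Z/Z values were also the higher ones (log2 difference between classes 0.13 ± 0.92 SE, adjusted p = 0.994, edgeR). Cxcl10, an interferon-induced chemokine, was at 19.8 and 0 CPM in WT and 291 and 356 CPM in Z/Z, with an adjusted p of 0.145 (edgeR).

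With all Epcam-positive cells at the threshold kept, a fit added after seeing the data, the sums covered 43, 13, 283 and 194 cells and 14 of 11851 genes were called (0.118%). Of these 6 were higher in Z/Z (Rgs4, Fbxo2, Cldn3, Arl4c, Gsta4 and Aldoc) and 8 lower (Sprr2a3, Zfp804b, Dpt, Ifi205, Mill1, Krt19, Aldh1a1 and Rbfox1). These sums mix cells with RNA of several classes, in proportions that differ between genotypes, and the part of that mixture in the calls was not tested.

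The last comparison asked whether the genotypes differed in another way in the chosen cells than in other gated cells of the same libraries. Of 9184 genes tested, 27 were called (0.294%), 8 with a higher and 19 with a lower Z/Z to WT ratio in the chosen cells (edgeR quasi-likelihood test of the interaction with library as a block). Fst was among them. It was at 436, 447, 139 and 151 CPM in the chosen cells and at 23.1, 9.87, 111 and 82.9 CPM in other gated cells of WT 1, WT 2, Z/Z 1 and Z/Z 2, a log2 difference of -3.50 ± 0.64 (SE, adjusted p = 0.00208). Adam28, a membrane metalloprotease, went the same way, at 337, 559, 70.4 and 60.9 CPM against 3.85, 14.8, 42.6 and 28.5 CPM (-4.24 ± 0.73, adjusted p = 0.0011). For both genes the chosen cells of WT were the highest of the 8 sums, from 22, 8, 17 and 10 UMIs.

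Aldh1a1 (-5.45), Dmd (-3.44) and Tenm2 (-4.79) were the other named genes with a lower ratio. On the higher side stood Krtdap, Pcdh15, Ptn, Ebf1 and Pth, of which Ebf1 had 1, 0, 291 and 92 UMIs in the chosen cells and was at 695, 631.5, 690 and 644.5 CPM in other gated cells. Krtdap and Pth rested on WT 1, where the 66 other gated cells held 1213 and 10875 UMIs of them and the chosen cells 0 and 1. A fitted value for a gene without UMIs in WT depends on the constant added to the counts and gives no bound. The count of 27 became 0 without Z/Z 1 or without Z/Z 2, 192 without WT 1 and 199 without WT 2, and 2 without barcodes shared between libraries. The differences themselves moved less for some genes. Fst stayed between -3.82 and -3.17 and Adam28 between -5.06 and -3.26 with 1 library left out. Dmd was -1.83 without WT 2, and without WT 1 Krtdap was 0.69, Aldh1a1 -9.40 and Ebf1 11.99. In thinned cells Fst was -2.39 and Adam28 -2.31, and with no exclusion they were -2.24 and -1.69. Neither gene was called in these 2 forms or without shared barcodes.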

How the data were processed

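Single CD45- thymic cells were profiled in 4 libraries, 2 WT and 2 Z/Z. The authors aligned reads with Cell Ranger to a mouse mm10 reference and deposited raw UMI counts per gene and barcode for called cells and for all barcodes. The deposited summaries give mapping as percent of reads. The exonic share (49.0% to 51.4%) was below the transcriptome share (64.7% to 67.3%), so intronic reads were counted. Called cells were used, with the filters given in the report, and 109 ribosomal protein and haemoglobin features were left out of the tests. Free RNA was read from barcodes with at most 100 UMIs.

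Chosen cells and gene lists were set with earlier results of these data known. UMIs were summed per library and class and given as CPM, per 1000000 UMIs. Higher and lower were read from CPM as such. Classes within Z/Z were described by ratios with 0.5 UMI added to each class, for genes averaging 10 CPM over both classes, and without a test. The 25 highest and 10 lowest ratios were named, at 50 CPM or more and in the same direction in both libraries. Also named were the 5 genes of smallest p in each direction of the interaction, and list members of high level. Genotypes were compared with edgeR 4.0.16 (quasi-likelihood, TMM, filterByExpr, genotype only, 14 rule genes left out), with a threshold of 0.05 on p after Benjamini-Hochberg adjustment, checked on simulated counts. The study's rank-sum tests over cells were not used. Alternatives were DESeq2 1.42.0, other size factors, no filter, other thresholds, thinned cells, and omission of doublets (scanpy 1.11.5 Scrublet scores, whose automatic threshold called 1.27% of cells), shared barcodes or single libraries. Shares have Clopper-Pearson intervals. Library totals were 8468086 to 50705511 UMIs. Positions come from GENCODE vM21.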

Additional observations from a re-analysis of the deposited data

Results flagged for a closer look

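The results listed here drew attention because the Z/Z to WT difference in the Adamts19 Kctd16 cells was not that of other gated cells of the same libraries, by edgeR's test of the interaction. There were 27 such genes. The difference of the log2 fold changes (chosen cells minus other gated cells) was -5.45 for Aldh1a1, -4.24 for Adam28, -3.44 for Dmd, -3.50 for Fst and -4.79 for Tenm2. It was 13.80 for Krtdap, 11.75 for Pcdh15, 11.12 for Ptn, 5.20 for Ebf1 and 7.32 for Pth. Krtdap, Pcdh15 and Ptn had 0 UMIs in the chosen cells of both WT libraries, so their values depend on the constant added to the counts. Groups of 2 libraries are too small to look for a single library far from the rest.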

How the results depend on the processing

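The share of Epcam-positive cells was higher in both Z/Z libraries under every alternative tried, in some by little. Without shared barcodes it was 0.982% (5 of 509) in WT 1 and 3.03% (2 of 66) in WT 2. In Z/Z 1 it was then 6.26% (85 of 1358) and in Z/Z 2 3.31% (44 of 1330). WT 2 thus lay just under Z/Z 2, and its interval (0.369% to 10.5%) took in both Z/Z values. The difference ran from 2.20 points (threshold of 5 UMIs) to 7.83 (no exclusion) and from 2.01 to 4.40 with 1 library left out. The count of genes called between genotypes was 0 with other size factors, without the filter on low counts, in thinned cells, at a threshold of 2 UMIs and without doublets or shared barcodes, but 4 with DESeq2, 14 with no exclusion, and 1 to 194 with 1 library left out, when the lone library of a group is assumed to vary like the others. The titles give the numbers 1 and 2 in both groups without stating a pairing. With the replicate block 1 gene was called (Hnf4g), and same-numbered libraries deviated together with r = 0.10 in the chosen cells and -0.02 in other gated cells, across genes. The interaction count was 42 with other size factors (27 shared with the 27 reported), 82 at a threshold of 2 UMIs (26 shared), 69 without doublets (26 shared), 7 in thinned cells (2 shared), 2 without shared barcodes, 0 with no exclusion and 0 to 199 with 1 library left out. Of 280 values of named genes, 273 kept their direction. With no exclusion the sign turned for Adamts6 (-0.93), Foxn1 (-0.19) and Cxcl10 (-0.58) between genotypes, and for Ptn (-0.39) and Pth (-0.55) in the interaction. Without WT 1 it turned for Pth and Tenm2 in the interaction, whose values with 1 library left out ran from -2.46 to 8.42 and from -6.90 to 4.85. With the same CPM added to both classes in place of 0.5 UMI, 24 of the 25 highest and 10 of the 10 lowest ratios were the same genes, the median of the 25 was 3.42-fold in place of 3.63-fold, and that of all genes was 0.08 in place of 0.12 on the log2 scale. This constant, the fits with no exclusion, the cleaner comparison cells and the thinned shares of other classes were chosen after seeing the data. The 5 and 2 cells of WT set the limit on depth, since 1 UMI there is 19.8 and 55.9 CPM.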
